A study of Mus musculus with 27 samples.

Results

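The genes of cholesterol and fatty acid synthesis were followed across mouse pluripotent stem cells. They are 32 entries, matched by symbol, of the 23608 entries of 1 bulk RNA-seq table with 19 libraries. All 32 were found. They comprise 18 sterol synthesis enzymes, the sterol carrier Stard4, 4 regulators and 9 fatty acid synthesis genes. The cells span the naïve, formative and primed states of pluripotency. Naïve mESCs (2 libraries) were grown without feeders in 2i/lif medium, which holds a Mek inhibitor, a Gsk3 inhibitor and Lif. EpiLCs (2 libraries) were flat cultures in N2B27 medium with knockout serum replacement (KSR), Activin A and bFgf2. Epiblastoids at day 2, 3 and 4 (1 library each) received the same supplements within Matrigel. Formative pluripotent stem cells (fPSCs) were also grown within Matrigel, as 3D culture, with Activin A, bFgf2 and the Wnt inhibitor XAV939, with no KSR listed. They were sequenced at passage 1 (P1, 1 library) and in long-term culture (7 libraries). Another 2 fPSC libraries, at passage 10, came from E5.5 and E6.5 epiblasts. Primed EpiSCs (2 libraries) were grown on inactivated embryonic fibroblasts (MEFs) with Activin A, bFgf2, XAV939 and a higher share of KSR than EpiLCs. All samples were labelled WT, and medium, culture in Matrigel and state cannot be told apart in these comparisons. The 7 long-term fPSC libraries were P10, P20 and P30 (the CMT line by the study's methods), a cryopreserved CMT culture at P11, and the 46C (P24), BVSC (P14) and ROSAmTmG (P12) lines. P10, P20 and P30 were described with the library preparation of the other states (set 1, 15 libraries), and the other 4 with a different kit (set 2). Each line outside CMT is 1 library, so that for 46C, BVSC and ROSAmTmG the effects of line and library set cannot be told apart.

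Cholesterol is built from acetyl-CoA through mevalonate, isoprenoid diphosphates, squalene and lanosterol, and the late enzymes trim lanosterol to cholesterol. Fatty acid synthesis draws on the same acetyl-CoA: it is carboxylated, joined into palmitate, elongated and desaturated. Many genes of both branches carry binding sites for the SREBP transcription factors, of which Srebf2 is best known for the sterol branch and Srebf1 for the fatty acid branch. Scap escorts SREBPs from the endoplasmic reticulum when sterols are low, and Insig1 holds them back when sterols are high. Stard4 moves sterols between membranes.

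RefSeq promoters (GRCm38.p6) of 25 members, 31 sequences in all, were searched on both strands because the members of the sterol branch are commonly controlled at their promoters. Fads1, Fdft1, Fdps, Scd1, Scd2, Sqle and Stard4 were not matched. Each sequence ran from 250 bases before to 50 bases after a transcription start site. CCAAT, the letters of the NF-Y site, was present in 21 of 31 sequences (67.7%) against 37.4% of all 32851 promoters in that table, and in 14 of 15 sterol genes and 3 of 6 fatty acid genes. GGGCGG, the letters of a GC box, was present in 24 of 31 (77.4%) against 35.7% of all promoters. TCACNCCAC, a core of the sterol response element, was present in 1 sequence, Hmgcs1 (3.23%, against 1.24% of all promoters). The 250 bases before the start are shown for Hmgcs1, the enzyme that makes HMG-CoA (chr13:119690101-119690350, plus strand), for Idi1, the isomerase with the widest relative spread over libraries in the sterol branch (coefficient of variation 63.9%, chr13:8885356-8885605, plus strand), for Ebp, the sterol isomerase that was lowest in EpiLCs (chrX:8193513-8193762, minus strand), for the sterol dehydrogenase Nsdhl (chrX:72918271-72918520, plus strand) and for fatty acid synthase, Fasn (chr11:120824548-120824797, minus strand). Capitals mark CCAAT on either strand and, in Hmgcs1 alone, TCACNCCAC. In Fasn, CCAAT on the 2 strands overlaps in 1 place.
Hmgcs1: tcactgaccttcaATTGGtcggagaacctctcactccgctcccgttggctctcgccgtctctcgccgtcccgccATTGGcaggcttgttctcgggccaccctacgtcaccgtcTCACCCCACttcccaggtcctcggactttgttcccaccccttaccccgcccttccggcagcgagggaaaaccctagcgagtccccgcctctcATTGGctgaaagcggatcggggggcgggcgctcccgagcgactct
Idi1: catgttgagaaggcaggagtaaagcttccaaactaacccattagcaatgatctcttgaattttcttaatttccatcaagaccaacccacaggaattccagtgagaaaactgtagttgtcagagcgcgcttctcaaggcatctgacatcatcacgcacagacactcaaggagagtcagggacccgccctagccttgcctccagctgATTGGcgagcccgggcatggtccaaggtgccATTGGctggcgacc
Ebp: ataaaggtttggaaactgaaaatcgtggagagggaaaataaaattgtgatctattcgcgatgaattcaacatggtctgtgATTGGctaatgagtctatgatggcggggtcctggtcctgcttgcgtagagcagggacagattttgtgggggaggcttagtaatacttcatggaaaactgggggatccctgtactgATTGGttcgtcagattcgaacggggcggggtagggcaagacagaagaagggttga
Nsdhl: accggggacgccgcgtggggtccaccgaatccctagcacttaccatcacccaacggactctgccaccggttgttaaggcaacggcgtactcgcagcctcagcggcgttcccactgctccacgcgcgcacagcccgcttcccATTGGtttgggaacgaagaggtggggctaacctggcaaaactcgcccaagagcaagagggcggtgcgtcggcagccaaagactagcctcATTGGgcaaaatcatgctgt
Fasn: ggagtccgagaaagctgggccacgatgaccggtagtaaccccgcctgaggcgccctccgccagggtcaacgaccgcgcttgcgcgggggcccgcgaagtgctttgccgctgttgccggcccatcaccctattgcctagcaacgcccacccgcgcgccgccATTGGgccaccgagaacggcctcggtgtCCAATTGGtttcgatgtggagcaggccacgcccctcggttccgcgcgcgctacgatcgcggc
These matches describe letters in a window and do not show that a factor was bound.

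Marker genes were examined before the states were compared. The summed level of 9 naïve markers was 1118 and 1246 FPKM (fragments by kilobase of gene model, scaled for library size) in mESCs and at most 34.6 in the other libraries. All 8 formative markers were at 1 FPKM or more in every EpiLC, Epiblastoid, fPSC and EpiSC library, as were 6 and 5 of them in mESCs. Their sums were 51.8 and 35.6 FPKM in mESCs, 284 and 288 in EpiSCs and 693 to 1134 in the EpiLC, Epiblastoid and fPSC libraries. Dnmt3b alone was at 121 and 126 FPKM in EpiSCs and 361 to 724 in those libraries. Pou3f1 and Lef1 did not set EpiSCs apart from long-term fPSCs. Pou3f1 was at 35.7 and 47.7 FPKM in EpiSCs and 13.3 to 43.2 in long-term fPSCs, and Lef1 at 32.5 and 30.9 and 13.4 to 54.7. The 7 primed and primitive streak markers did not set EpiSCs apart, with sums of 35.0 and 50.8 FPKM against 30.1 to 254 in long-term fPSCs. Some members overlap other annotated genes over long stretches, on the opposite strand (Mvd with Gm20388, Lss with 4930483K19Rik, Acss2 with Gss, Acaca with Gm11437, Scap with 5830462I19Rik), and whether fragments were counted by strand is not given in the sources used here. Summed FPKM over all genes was between 307394 and 414727, and read depth is unknown. Most fibroblast markers stood apart in EpiSCs: 11 of 13 reached 1 FPKM in both libraries, with sums of 713 and 857, against 2.41 to 19.1 elsewhere. Acta2, Tagln and collagen genes made up most of these sums. Dcn and Thy1 did not stand apart. Dcn was at 2.82 and 1.88 FPKM in EpiSCs and 4.48 and 6.10 in EpiLCs, and Thy1 at 4.63 and 4.01 in EpiSCs and 7.64 in ROSAmTmG fPSCs. Endoderm markers summed to 468 at Epiblastoid day 4, 388 in 46C fPSCs, 219 and 142 in E5.5 and E6.5 fPSCs, 11.1 to 100.3 in the other 6 long-term fPSC libraries and at most 22.0 elsewhere. Cer1 alone was at 295 FPKM at day 4, 203 in 46C and 124 and 56.4 in E5.5 and E6.5 fPSCs. Afp, Amn, Cubn and Apob stayed below 1 FPKM in these libraries, and Dab2 was highest in EpiSCs (5.22 and 9.49). The part of the fibroblast and endoderm markers in the results was not tested. In bulk RNA, fewer cells of a type and less RNA per cell cannot be told apart.

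The summed level of the 18 sterol genes was higher in EpiLCs and fPSCs than in mESCs and EpiSCs. It was 657 and 698 FPKM in mESCs and 642 and 719 in EpiSCs. In EpiLCs it was 1029.9 and 1112, and in the 7 long-term fPSC libraries it ran from 1007 to 1303 (mean 1187 ± 119, SD). Every EpiLC and fPSC library was above 1000 FPKM, and neither mESCs nor EpiSCs overlapped with fPSCs. Epiblastoid days 2 and 3 were below it, at 773 and 837. Day 4 was at 1113, with the highest sums of the 19 libraries for primed and primitive streak markers (758 FPKM) and endoderm markers (468). The 9 fatty acid genes summed to 606 and 760.2 FPKM in mESCs, 641 and 815 in EpiLCs, 561 and 573 in EpiSCs and 785 to 1209 in long-term fPSCs. Scd2 alone, a stearoyl-CoA desaturase, made up a large part of this sum: without it the fPSC libraries held 471 to 561 FPKM, mESCs 404 and 514 and EpiLCs 479.8 and 569, which overlap, and EpiSCs 346 and 370.4, below every fPSC library. By state mean, fPSCs were highest for 10 of 18 sterol genes and 4 of 9 fatty acid genes and lowest for none of either. These fPSC means include set 2. The mean sterol sum was 1076 FPKM in fPSCs of set 1, 1270 in set 2 and 1071 in EpiLCs. In set 1 the means of Idi1 (32.6 FPKM), Cyp51 (42.1) and Sqle (90.06) were below those of EpiLCs (38.6, 43.7 and 90.32). The rest of the 10 stayed highest. Acss2 was lowest in set 1 (0.586, against 1.10 in EpiSCs). mESCs were lowest for 9 sterol genes and EpiSCs for 8. Across the 19 libraries, the medians of the 2 branches had a Pearson correlation of 0.68, a description of libraries that share states and library sets.

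**Figure D1:**
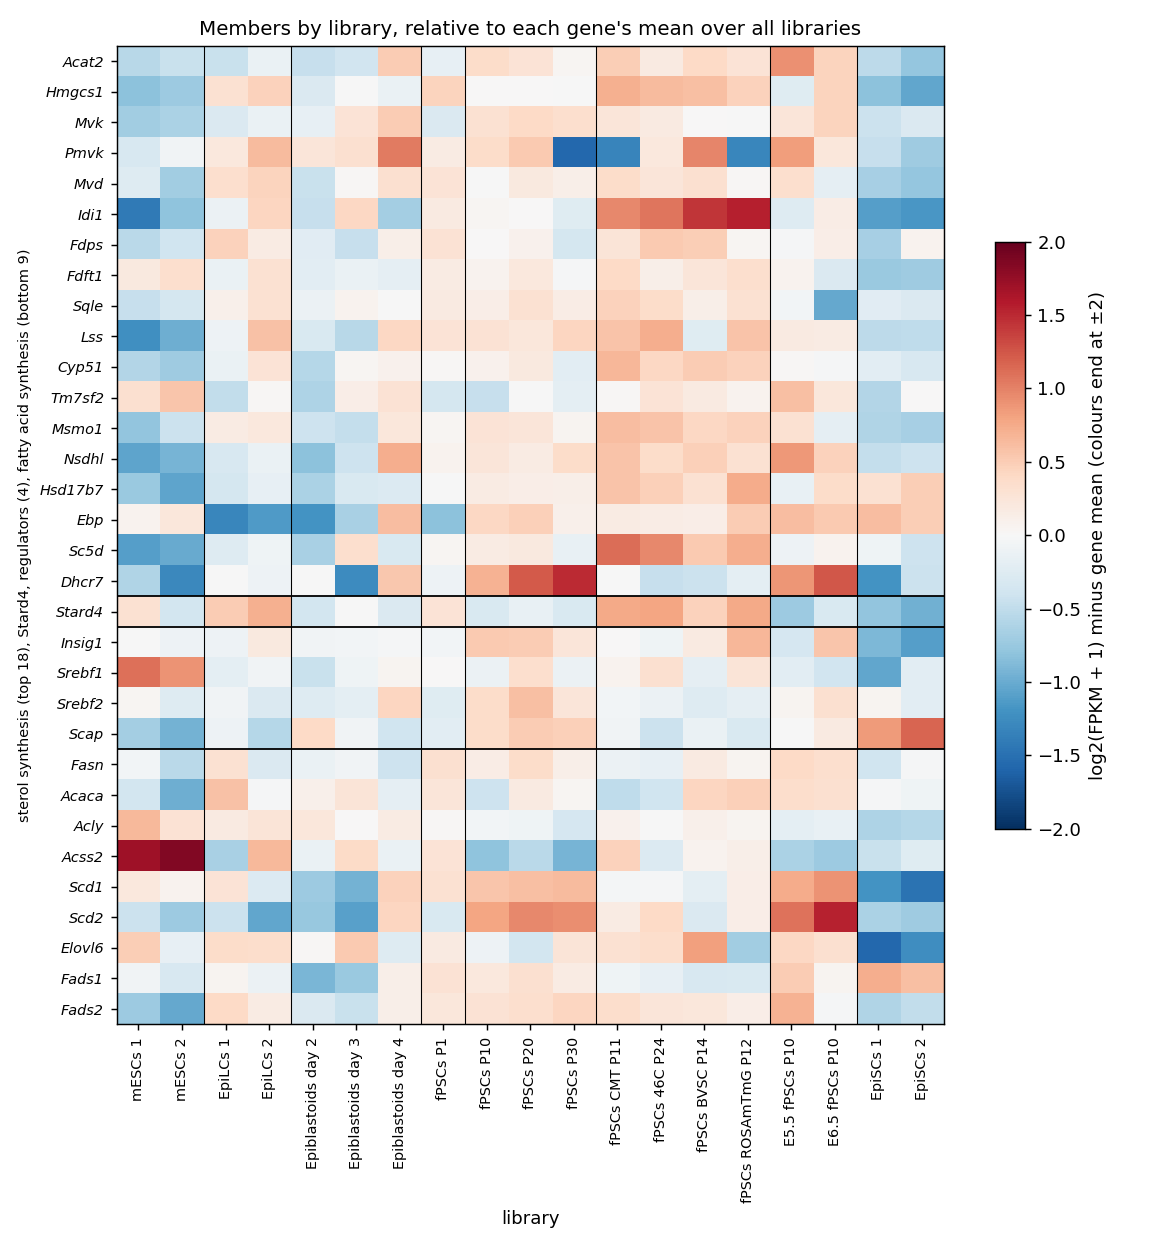
Level of each of the 32 genes (rows) in each of the 19 libraries (columns), as log2(FPKM + 1) minus the gene's mean over the libraries; red is above and blue below that mean. Most sterol rows are blue in mESCs and EpiSCs and red in long-term fPSCs, while Ebp is lowest in EpiLCs and Acss2 highest in mESCs.

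**Figure D2:**
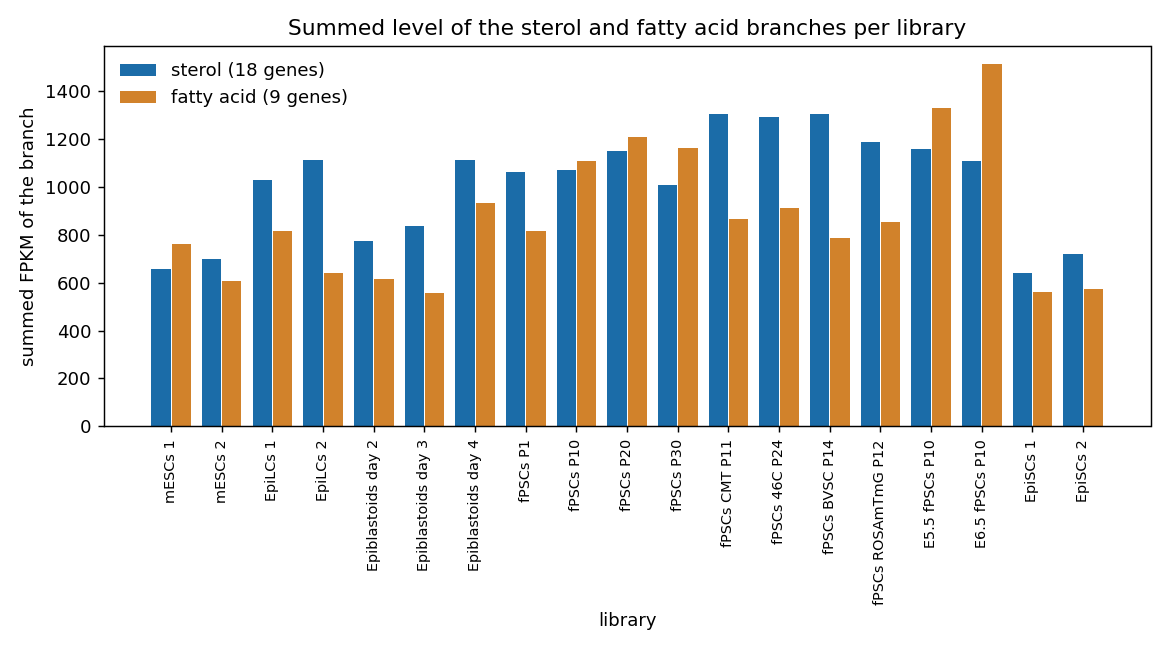
Summed FPKM of the 18 sterol genes (blue bars) and the 9 fatty acid genes (orange bars) in each library. The sterol bars of long-term fPSCs stand between 1007 and 1303, above both mESC and both EpiSC libraries.

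fPSCs were first compared with naïve mESCs. Most sterol genes were higher in fPSCs, among them Hmgcs1 near the start of the pathway and Sc5d near its end. By limma on log2(FPKM + 1), with Benjamini-Hochberg adjustment over all 12513 genes tested, an adjusted p below 0.05 and a fold of at least 1.5, 13 of 18 sterol genes were higher and none lower. Over all genes 17.3% were called higher and 23.0% lower, and 50.3% did not overlap between the groups. The median log2 fold change was 0.91 for the sterol genes and -0.04 for all genes. Idi1, which isomerises isopentenyl diphosphate, was at 12.1 and 19.1 FPKM in mESCs and 28.6 to 102 FPKM (median 67.5) in fPSCs (log2 fold change 1.80 ± 0.44 (SE), adjusted p = 0.00526). Sc5d, the sterol desaturase of a late step, was at 4.02 and 4.35 in mESCs and 8.78 to 22.53 FPKM (median 14.6) in fPSCs (log2 fold change 1.57 ± 0.29 (SE), adjusted p = 0.00071). Lss, which closes the sterol rings to give lanosterol, was at 8.28 and 10.001 and 17.4 to 34.9 FPKM (median 28.3) (log2 fold change 1.47 ± 0.24 (SE), adjusted p = 0.00025). For each of these enzymes every fPSC library was above both mESC libraries. Nsdhl, which helps to remove the methyl groups at carbon 4, was at 13.8 and 15.2 FPKM in mESCs and 33.5 to 44.7 FPKM (median 38.9) in fPSCs (log2 fold change 1.35 ± 0.14 (SE), adjusted p = 3.95e-06). The other sterol genes that rose were Dhcr7 (1.28), Hsd17b7 (1.26), Hmgcs1 (1.12), Msmo1 (0.98), Cyp51 (0.96), Mvk (0.87), Acat2 (0.79), Sqle (0.67) and Mvd (0.65), as log2 fold changes. Dhcr7 lay at the threshold (adjusted p = 0.0498), and its call was lost without P10, P20, P30 or CMT P11. Of the 5 sterol genes not called, Fdps had a log2 fold change of 0.62 (adjusted p = 0.0552), Tm7sf2 -0.46, Fdft1 -0.07, Pmvk -0.10 and Ebp 0.13. Of all 32 members, 16 were higher and 2 lower. With only the fPSCs of set 1, the library set of mESCs, 15 members were higher and 4 lower. Mvd was lost, and Acly and the sterol gene Tm7sf2 were gained as lower. With only set 2, 17 were higher and 2 lower, with Scap lost and Fdps and Stard4 gained as higher. Over all genes 51.8% were called with set 1 and 43.8% with set 2, against 40.3% in the main fit. Without the first mESC library Idi1, Dhcr7, Srebf1, Scap and Scd2 were lost, and without the second Mvd, Dhcr7, Scap and Scd2 were lost. A smaller share of all genes was called in both cases, which leave 1 mESC library.

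In the fatty acid branch fewer genes passed between fPSCs and mESCs. Of 9 genes, 2 rose and 1 fell, shares near or below the 17.3% and 23.0% of all genes, and the median log2 fold change was 0.17. Acss2, which makes acetyl-CoA from acetate, was at 7.57 and 8.63 FPKM in mESCs and 0.4004 to 2.67 FPKM (median 1.21) in fPSCs (log2 fold change -2.04 ± 0.37 (SE), adjusted p = 0.000654). Fads2, a desaturase of polyunsaturated fatty acids, was at 60.5 and 49.0 in mESCs and 111 to 137 FPKM (median 124) in fPSCs (log2 fold change 1.17 ± 0.13 (SE), adjusted p = 1.38e-05). Scd2 was at 246 and 202 in mESCs and 271 to 648 FPKM (median 439.8) in fPSCs (log2 fold change 1.02 ± 0.31 (SE), adjusted p = 0.0175). None of these overlapped between the groups. Acly, which cleaves citrate to acetyl-CoA, was lower in all fPSC libraries but short of the fold of 1.5 (-0.50, adjusted p = 0.0162). The core enzymes Fasn (0.39, adjusted p = 0.139) and Acaca, acetyl-CoA carboxylase (0.64, adjusted p = 0.0974), did not pass, nor did Scd1 (0.10), Elovl6 (-0.08) or Fads1 (0.17).

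The regulators did not move as a group. Srebf1 was at 62.8 and 54.1 FPKM in mESCs and 25.01 to 36.5 FPKM (median 30.2) in fPSCs (log2 fold change -0.92 ± 0.22 (SE), adjusted p = 0.00368). Scap was at 7.72 and 6.21 in mESCs and 9.31 to 18.8 FPKM (median 12.2) in fPSCs (log2 fold change 0.87 ± 0.26 (SE), adjusted p = 0.0168). The first was lower and the second higher in every fPSC library. Srebf2 (0.20, adjusted p = 0.499), Insig1 (0.35, adjusted p = 0.171) and Stard4 (0.32, adjusted p = 0.469) did not pass. Across the 19 libraries the Pearson correlation of Srebf2 with the median of the sterol genes was 0.25, and that of Srebf1 with the median of the fatty acid genes was 0.12, both given as descriptions.

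**Figure D3:**
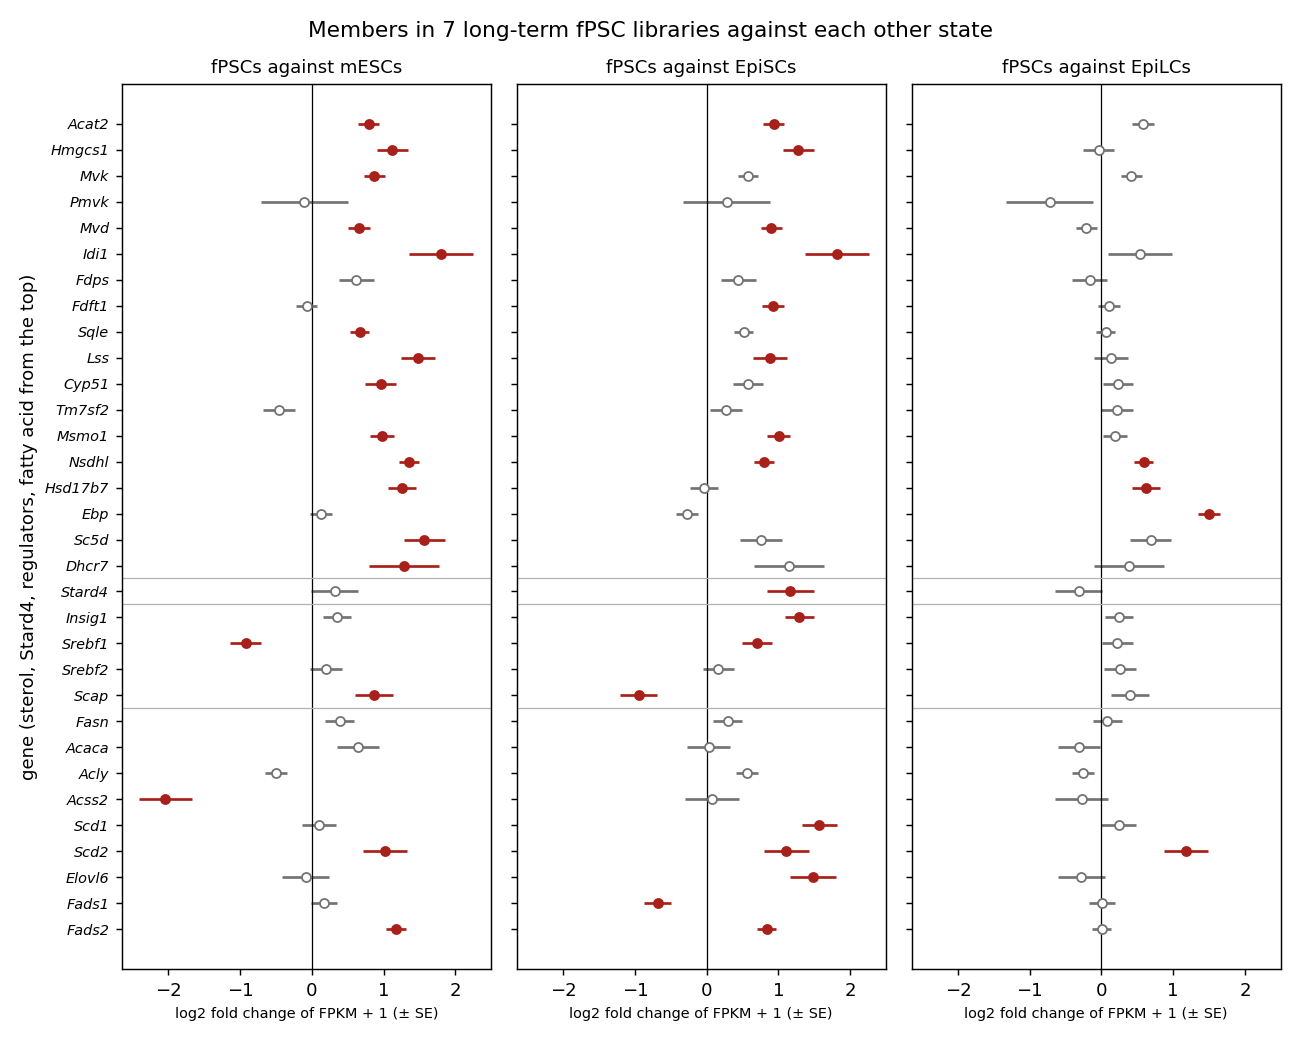
Log2 fold change of FPKM + 1 (horizontal, ± SE) of each member in 7 long-term fPSC libraries against 2 mESC, 2 EpiSC or 2 EpiLC libraries. Filled red points are past the threshold: 18 against mESCs, 17 against EpiSCs and 4 against EpiLCs.

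fPSCs were then compared with primed EpiSCs. Here 8 of 18 sterol genes were higher in fPSCs and none lower (13.3% of all genes were called higher and 19.0% lower, and 45.4% did not overlap), with a median log2 fold change of 0.78 against 0.02 for all genes. Idi1 was at 15.4 and 14.7 FPKM in EpiSCs (log2 fold change 1.82 ± 0.44 (SE), adjusted p = 0.00723). Hmgcs1 was at 71.7 and 61.4 in EpiSCs and 127 to 209.6 FPKM (median 176) in fPSCs (log2 fold change 1.28 ± 0.22 (SE), adjusted p = 0.000652). Msmo1, the methylsterol monooxygenase, was at 43.8 and 42.1 and 69.4 to 103 FPKM (median 89.1) (log2 fold change 1.002 ± 0.16 (SE), adjusted p = 0.000458). In each case the EpiSC libraries were below every fPSC library. Acat2, a thiolase that joins acetyl-CoA units, was at 61.9 and 51.8 in EpiSCs and 91.2 to 126 FPKM (median 108) in fPSCs (log2 fold change 0.93 ± 0.15 (SE), adjusted p = 0.000425), and it lies beside Acat3, a close relative whose share of reads is not known. Fdft1, squalene synthase, was 0.92 higher on the log2 scale, with Mvd at 0.90, Lss at 0.88 and Nsdhl at 0.80. Dhcr7 (1.15, adjusted p = 0.0831) and Sc5d (0.76, adjusted p = 0.0579) missed the threshold, while Ebp (-0.28) and Hsd17b7 (-0.04) had values at or below 0.

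Among the fatty acid genes 4 of 9 were higher in fPSCs than in EpiSCs and 1 was lower. Scd1, a stearoyl-CoA desaturase and close relative of Scd2 with which it could share reads, was at 25.6 and 20.8 FPKM in EpiSCs and 52.3 to 92.8 FPKM (median 65.7) in fPSCs (log2 fold change 1.57 ± 0.24 (SE), adjusted p = 0.000272). Elovl6, which elongates palmitate, was at 4.30 and 5.61 and 8.64 to 26.6 FPKM (median 17.8) (log2 fold change 1.48 ± 0.33 (SE), adjusted p = 0.00389). Both were above the EpiSC libraries in all 7 fPSC libraries. Scd2 was at 215 and 203 in EpiSCs (log2 fold change 1.112 ± 0.31 (SE), adjusted p = 0.0149). Fads2 was at 66.4 and 71.6 (log2 fold change 0.84 ± 0.13 (SE), adjusted p = 0.000424). Fads1, the desaturase that follows Fads2 in the pathway, went the other way, with 70.8 and 64.9 FPKM in EpiSCs and 33.9 to 53.4 FPKM (median 40.1) in fPSCs (log2 fold change -0.68 ± 0.18 (SE), adjusted p = 0.0121). Insig1 was at 28.1 and 24.1 in EpiSCs and 49.9 to 84.4 FPKM (median 62.9) in fPSCs (log2 fold change 1.29 ± 0.20 (SE), adjusted p = 0.000273). Stard4 was at 9.06 and 7.96 and 13.1 to 29.3 FPKM (median 23.0) (log2 fold change 1.17 ± 0.33 (SE), adjusted p = 0.0157). Srebf1 was higher (0.70) and Scap lower (-0.95) in fPSCs, and Srebf2 did not pass (0.16). EpiSCs are the group with the fibroblast marker sums of 713 and 857 FPKM. In all, 17 members were called with both EpiSC libraries. Without either of them the group is a single library, and fewer members and a smaller share of all genes were called. Idi1, Lss, Stard4, Scap, Scd2 and Fads1 were lost in both cases. With fPSCs of set 1 alone Srebf1, Scap and Fads1 were not called, and Mvk and Dhcr7 were gained as higher. Over all genes 31.5% were called with set 1 alone, against 32.3% in the main fit.

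Against EpiLCs few members passed the test. Here 4 of 32 were higher in fPSCs and none lower, where 5.66% of all genes were called higher and 8.15% lower and 27.1% did not overlap. Ebp had the largest difference, at 6.03 and 6.92 FPKM in EpiLCs and 17.7 to 23.8 FPKM (median 18.4) in fPSCs (log2 fold change 1.495 ± 0.16 (SE), adjusted p = 2.20e-05). Hsd17b7, the sterol ketoreductase of demethylation, was at 4.77 and 5.55 and 7.02 to 11.3 FPKM (median 8.13) (log2 fold change 0.62 ± 0.20 (SE), adjusted p = 0.0494). Nsdhl was at 23.7 and 27.1 in EpiLCs (log2 fold change 0.59 ± 0.14 (SE), adjusted p = 0.0106). All fPSC libraries were above both EpiLC libraries for these late enzymes. Scd2 was at 246 and 161 in EpiLCs (log2 fold change 1.18 ± 0.31 (SE), adjusted p = 0.0211). The medians were 0.23 for the sterol genes, 0.00 for the fatty acid genes and 0.01 for all genes. Hmgcs1 (-0.04), Fdps (-0.17), Sqle (0.06), Fasn (0.08) and Fads2 (0.00) were among the 28 members that did not pass. With fPSCs of set 1 alone, the library set that EpiLCs share, only Ebp and Scd2 of these 4 were called, and Nsdhl and Hsd17b7 were lost. Scd1, Dhcr7 and Scap were gained as higher and Stard4 as lower (13.1 to 14.8 FPKM in set 1, 23.8 and 27.6 in EpiLCs). With set 2 alone all 4 were called, with Idi1, Acat2 and Sc5d, all higher. Over all genes 25.8% were called with set 1 and 21.2% with set 2, against 13.8% in the main fit. Without the first EpiLC library Nsdhl, Hsd17b7 and Scd2 were lost, and without the second Hsd17b7 and Scd2 were lost. A smaller share of all genes was called in both cases, which leave 1 EpiLC library. Nsdhl and Hsd17b7 were lost without CMT P11, 46C or BVSC, Hsd17b7 without P10 or ROSAmTmG and Nsdhl without P30.

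The 3 states other than fPSCs were set against each other. EpiLCs had 6 of 18 sterol genes higher than mESCs and 1 lower, Ebp (12.2% of all genes were called higher and 17.4% lower, and 68.2% did not overlap). Ebp was at 17.2 and 19.2 FPKM in mESCs and fell in EpiLCs to the values given above (log2 fold change -1.36 ± 0.19 (SE), adjusted p = 0.000161). Lss was at 19.2 and 31.4 in EpiLCs (log2 fold change 1.34 ± 0.30 (SE), adjusted p = 0.00413). Hmgcs1 was at 71.4 and 76.6 in mESCs and 158 and 175 in EpiLCs (log2 fold change 1.16 ± 0.27 (SE), adjusted p = 0.00583). These pairs of libraries did not overlap. Mvd, which decarboxylates mevalonate diphosphate, was at 41.2 and 30.3 and 62.4 and 67.9 (log2 fold change 0.86 ± 0.19 (SE), adjusted p = 0.0036). Nsdhl, Msmo1 and Sqle also rose. Fads2 was at 134 and 114 in EpiLCs (log2 fold change 1.17 ± 0.17 (SE), adjusted p = 0.000177). Acss2 was at 0.706 and 3.19 (log2 fold change -1.76 ± 0.47 (SE), adjusted p = 0.0116) and Srebf1 at 24.7 and 27.1 (log2 fold change -1.14 ± 0.27 (SE), adjusted p = 0.00601). Both of these fell. Scaling the libraries to the same upper quartile moved the median of all genes from -0.06 to 0.04 and the members called from 10 to 16 (13 higher, 3 lower). The share of all genes called went from 29.6% to 31.0%. Sqle was lost without the first or second mESC or the second EpiLC library, Msmo1 and Srebf1 without the first mESC library, Mvd and Acss2 without the second, Acss2 without the first EpiLC and Lss without the second EpiLC library.

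Between EpiSCs and mESCs, 4 of 9 fatty acid genes were lower in EpiSCs and 1 higher, with 2 of 18 sterol genes lower and 1 higher (23.1% of all genes were called higher and 24.7% lower, and 80.9% did not overlap). All 11 fibroblast markers tested were higher in EpiSCs, and their part in this comparison was not tested. Elovl6 was at 21.1 and 12.9 FPKM in mESCs (log2 fold change -1.57 ± 0.41 (SE), adjusted p = 0.00689). Scd1 was at 69.5 and 62.5 in mESCs (log2 fold change -1.47 ± 0.30 (SE), adjusted p = 0.00139). Acly was at 199 and 155 in mESCs and 82.9 and 85.0 in EpiSCs (log2 fold change -1.06 ± 0.19 (SE), adjusted p = 0.000512). All 3 were lower in both EpiSC libraries. Acss2 was at 0.955 and 1.25 in EpiSCs (log2 fold change -2.12 ± 0.47 (SE), adjusted p = 0.00241). Fads1 was at 40.3 and 34.0 in mESCs (log2 fold change 0.86 ± 0.23 (SE), adjusted p = 0.00814). Of the sterol genes, Hsd17b7 was at 3.38 and 2.56 in mESCs and 8.11 and 9.32 in EpiSCs (log2 fold change 1.29 ± 0.24 (SE), adjusted p = 0.000795), while Fdft1 was at 61.8 and 67.6 and 31.5 and 32.2 (log2 fold change -0.997 ± 0.19 (SE), adjusted p = 0.000801). Tm7sf2, a sterol reductase, was at 26.9 and 31.7 in mESCs and 13.9 and 21.5 in EpiSCs (log2 fold change -0.72 ± 0.27 (SE), adjusted p = 0.0439). Hsd17b7 was the only one of these that rose. Scap was at 24.2 and 30.1 FPKM in EpiSCs, the highest level of the 4 states (log2 fold change 1.82 ± 0.33 (SE), adjusted p = 0.000587). Srebf1 was at 13.4 and 24.7 (log2 fold change -1.62 ± 0.27 (SE), adjusted p = 0.000296), and Insig1 was lower (-0.94). Tm7sf2 was lost without either mESC library or the first EpiSC library, Elovl6 without the first library of either group, Fads1 without the second mESC or first EpiSC library and Insig1 without the second EpiSC library.

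Between EpiLCs and EpiSCs, 10 of 32 members were lower in EpiSCs and 3 higher (15.5% of all genes lower and 20.4% higher, and 75.0% without overlap). Ebp was at 25.7 and 23.3 FPKM in EpiSCs (log2 fold change 1.77 ± 0.19 (SE), adjusted p = 1.62e-05). Mvd was at 30.9 and 28.4 in EpiSCs (log2 fold change -1.110 ± 0.19 (SE), adjusted p = 0.00056), and Fdft1 was at 48.8 and 66.2 in EpiLCs (log2 fold change -0.82 ± 0.19 (SE), adjusted p = 0.00479). Hmgcs1 (-1.31) and Msmo1 (-0.81) were the other sterol genes that fell, as log2 fold changes. In the fatty acid branch Elovl6 was at 19.3 and 19.1 in EpiLCs (log2 fold change -1.77 ± 0.41 (SE), adjusted p = 0.00488). Scd1 was at 72.1 and 49.4 in EpiLCs (log2 fold change -1.33 ± 0.30 (SE), adjusted p = 0.00411). Acly was at 144 and 153 in EpiLCs (log2 fold change -0.81 ± 0.19 (SE), adjusted p = 0.00492). All 3 were lower in both EpiSC libraries, as was Fads2 (-0.83), and Fads1 rose (0.69). Stard4 (-1.49) and Insig1 (-1.05) fell, and Scap rose (1.35). Of 11 fibroblast markers tested, 9 were higher in EpiSCs and 1 lower. The lower 1 was Dcn, at 4.48 and 6.10 FPKM in EpiLCs and 2.82 and 1.88 in EpiSCs. Without the second EpiLC library Fdft1, Stard4, Insig1, Scap and Fads1 were lost. Without the second EpiSC library Msmo1, Stard4, Insig1, Scap and Fads1 were lost, and Fads1 was also lost without the first library of either group. A smaller share of all genes was called in each of these fits, which leave 1 library in a group.

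The 3 Epiblastoid libraries have no replicates, so they are given as log2 ratios of FPKM + 1 with no test. At day 2, the sterol genes stood below EpiLCs: 6 of 18 were lower by at least 1.5-fold and none higher, with a median ratio of -0.43 (all genes 0.01, 8.24% lower and 8.75% higher by that fold). Mvd was at 36.2 FPKM at day 2 (-0.83), Hmgcs1 at 104 (-0.67), Cyp51, lanosterol demethylase, at 27.4 (-0.64) and Idi1 at 24.5 (-0.61). Stard4 (-0.98), Fads1 (-0.89) and Scd1 (-0.73) were lower too, and Scap was higher (0.74). From day 2 to day 3, 4 members were higher and 1 was lower by that fold at day 3 (13.4% and 7.90% of all genes), all of them sterol genes. Sc5d went from 5.92 to 12.7 FPKM, Idi1 from 24.5 to 45.8, Tm7sf2 from 13.53 to 23.5 and Cyp51 from 27.4 to 42.1. Dhcr7, which makes cholesterol from its last precursor on one route, went from 49.0 to 19.9.

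From day 3 to day 4 both branches had members past that fold: 11 of 32 members were higher and 3 lower by at least 1.5-fold, against 15.5% and 22.2% of all genes. Dhcr7 went from 19.9 to 72.1 FPKM (1.81), Ebp from 10.05 to 25.6 (1.27) and Nsdhl from 22.1 to 49.95 (1.14). Lss, Acat2, Pmvk and Msmo1 were the other sterol genes that were higher. Idi1 went back from 45.8 to 20.8 and Sc5d from 12.7 to 7.77, so that these enzymes were highest at day 3 among the 3 days. Scd2 went from 156 to 446 (1.51), Scd1 from 30.4 to 82.2 (1.41) and Fads1 from 24.9 to 45.96. Elovl6 was lower at day 4 (12.1 against 21.6). Srebf2 went from 55.2 to 85.7. The sterol sum was 773, 837 and 1113 FPKM at the 3 days, and the fatty acid sum 615, 557 and 934. Between day 3 and day 4 the endoderm marker sum went from 3.13 to 468 FPKM (5 of 12 markers at 1 FPKM or more at day 4, 2 at 0), and that of primed and primitive streak markers from 55.7 to 758. Their part in these ratios was not tested.

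fPSCs at P1 were compared with P10, P20 and P30, which share their library set. 1 member was higher and 6 were lower at P1 by at least 1.5-fold (13.9% and 9.76% of all genes), again with 1 library and no test. Dhcr7 was at 45.8 FPKM at P1 and at 80.2, 117 and 141 at P10, P20 and P30. Scd2 was at 271 and then 575, 648 and 632. Ebp was at 8.83 and then 22.0, 23.2 and 17.7. P1 was below all 3 later passages for each of them. Primed and streak markers summed to 5.98 FPKM at P1 against 68.1 to 78.0 at P10 to P30, and endoderm markers to 1.78 against 11.1 to 75.0, and their part in these ratios was not tested. Mvk, mevalonate kinase (-0.64), Scap (-0.67) and Srebf2 (-0.65) were also lower, and Acss2 was at 2.23 FPKM at P1 against 0.531, 0.826 and 0.4004. The sterol sum at P1 was 1063 FPKM, within the range of the 3 later passages.

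The 4 fPSC libraries of set 2 were compared with the 3 of set 1. Within each set the levels were close: the median coefficient of variation of the sterol genes was 9.49% in set 1 and 10.1% in set 2, against 18.0% over all 7 libraries. Between the sets 5 members were higher in set 2 and 4 lower, where 20.8% of all 10930 genes tested were called higher and 8.93% lower and 51.3% did not overlap. The median log2 fold change was 0.18 for sterol genes and -0.11 for fatty acid genes, with 0.19 for all genes. Idi1 was at 34.9, 34.3 and 28.6 FPKM in P10, P20 and P30, and at 67.5, 72.6, 93.2 and 102 in CMT P11, 46C, BVSC and ROSAmTmG (log2 fold change 1.32 ± 0.16 (SE), adjusted p = 0.000563). Dhcr7 went the other way, with 80.2, 117 and 141 in set 1 and 48.8, 35.6, 36.3 and 42.8 in set 2 (log2 fold change -1.41 ± 0.20 (SE), adjusted p = 0.000929). The sets did not overlap for either gene. Sc5d was at 11.1, 11.4 and 8.78 in set 1 and 22.53, 20.1, 14.6 and 17.0 in set 2 (log2 fold change 0.76 ± 0.16 (SE), adjusted p = 0.00589). Hmgcs1 was at 128, 128 and 127 and 209.6, 198, 194 and 176 (log2 fold change 0.60 ± 0.09 (SE), adjusted p = 0.00122). Stard4 was at 13.2, 14.8 and 13.1 and 28.7, 29.3, 23.0 and 28.4 (log2 fold change 0.94 ± 0.11 (SE), adjusted p = 0.000529). These sterol genes were higher in every library of set 2. Scd2 was at 575, 648 and 632 in set 1 and 373, 439.8, 271 and 366 in set 2 (log2 fold change -0.79 ± 0.16 (SE), adjusted p = 0.00464). Scd1 was at 87.8, 90.8 and 92.8 and 58.3, 58.9, 52.3 and 65.7 (log2 fold change -0.62 ± 0.10 (SE), adjusted p = 0.00155). Acss2 was low throughout, at 0.531, 0.826 and 0.4004 in set 1 and 2.67, 1.21, 1.79 and 1.89 in set 2 (log2 fold change 0.85 ± 0.19 (SE), adjusted p = 0.00825), and Scap was lower in set 2 (-0.69). CMT P11 was also set alone against set 1, a choice made after seeing the data. Against set 1 its log2 fold change was 1.03 for Idi1, 1.05 for Sc5d, 1.01 for Stard4, 0.71 for Hmgcs1, -1.15 for Dhcr7, -0.63 for Scd1 and -0.72 for Scd2. Scap was at 12.2 FPKM, against 17.0 to 18.8 in set 1, and Acss2 at 2.67, against 0.4004 to 0.826. These members were picked because they were called between the sets, and CMT P11 is itself in set 2. The direction of its changes is thus no independent support for a difference between the sets. The fit assumes that the lone library varies like those of set 1, so only sizes of change are given. P11 was also cryopreserved, so library set and cryopreservation cannot be told apart for this pair. Scaling to the upper quartile, or leaving out CMT P11, ended the call of Hmgcs1 and added Srebf2 as lower, and without BVSC Scd1 was lost.

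**Figure D4:**
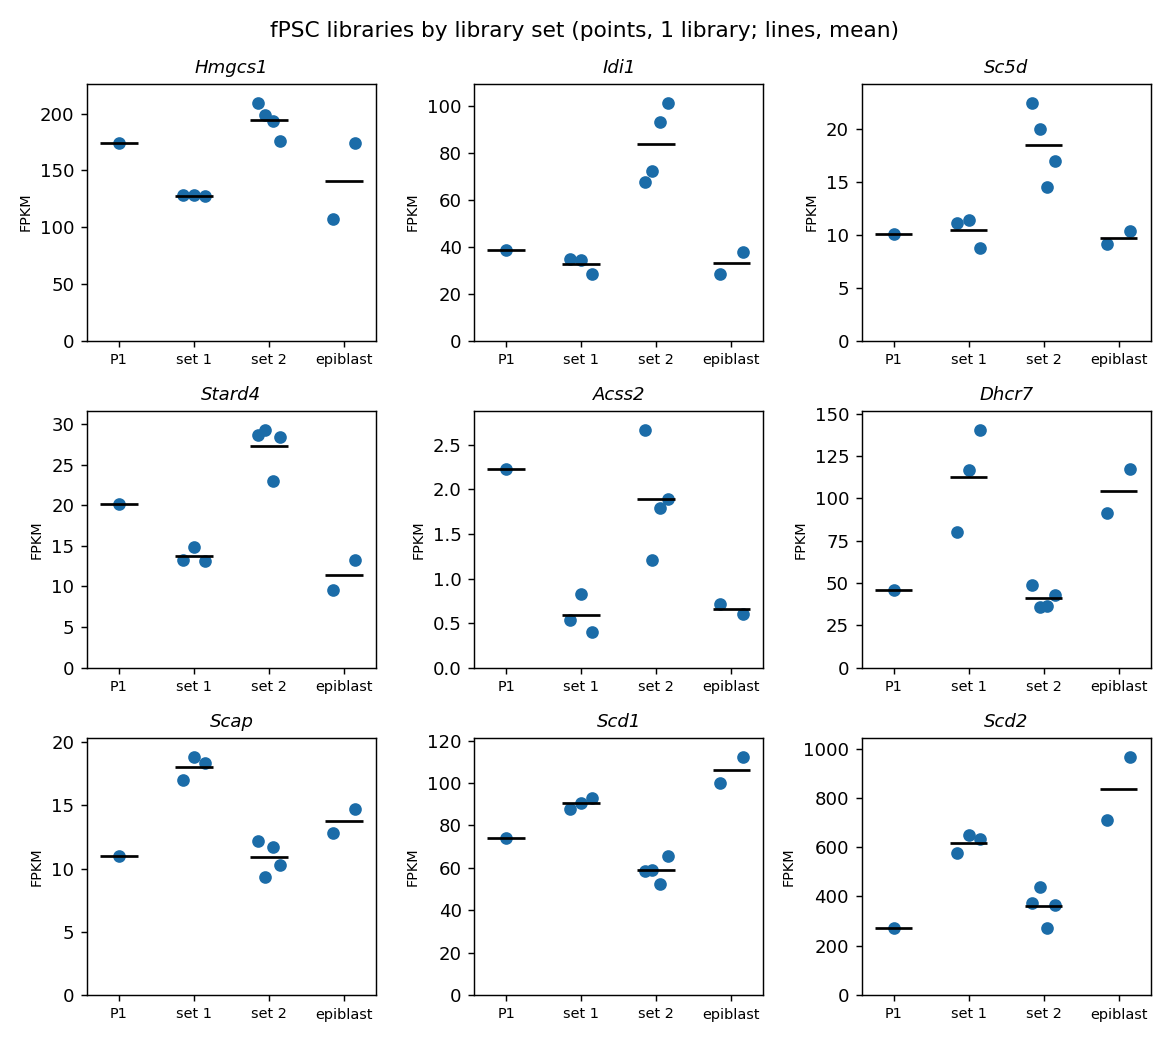
FPKM of the 9 members called between fPSC library sets (vertical axes from 0) at P1, in set 1 (P10, P20, P30), in set 2 (CMT P11, 46C, BVSC, ROSAmTmG) and in the epiblast-derived fPSCs; points are libraries and lines means. The 2 sets do not overlap in any panel, and the members were picked by their difference between these sets.

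Among the 4 lines of set 2, Pmvk varied most often. Each line was set against the mean log2(FPKM + 1) of the other 3, with no test. CMT P11 had 2 members lower by a fold of 1.5 or more (2.06% of all genes lower, 1.99% higher), and 46C had 1 higher (11.2% higher, 3.70% lower). BVSC had 2 higher and 1 lower (2.20% higher, 3.49% lower), and ROSAmTmG had 2 higher and 2 lower (3.55% higher, 7.46% lower). Pmvk, phosphomevalonate kinase, accounted for 1 of these in every line: it was at 12.0, 36.8, 62.9 and 12.2 FPKM, and at 41.3, 46.04 and 9.92 in P10, P20 and P30. In 46C Pmvk was past the fold on that log2 scale (0.77) but not against the plain mean of the other 3 lines, 29.0 FPKM. Both sets held low and high values of it. Elovl6 was at 18.3, 19.00, 26.6 and 8.64, highest in BVSC and lowest in ROSAmTmG. Acaca was at 7.24, 7.84, 14.7 and 15.3. Lss was lower in BVSC, and Insig1 was higher in ROSAmTmG (84.4 FPKM) than in the other lines (49.9 to 60.6). In the 46C line, which had the endoderm marker sum of 388 FPKM, the sterol sum was 1291 FPKM, between those of ROSAmTmG (1185) and BVSC (1303), and the fatty acid sum was 911, the highest of the 4 (785 to 867 in the others).

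fPSCs taken directly from E5.5 and E6.5 epiblasts were compared with P10, P20 and P30. No member of 31 tested passed by limma, while 0.612% of all 10458 genes were called higher and 0.526% lower, and 31.2% did not overlap. Scd2 was at 710.1 and 966 FPKM, above the 3 other libraries (log2 fold change 0.42 ± 0.20 (SE), adjusted p = 0.408). Nsdhl was at 55.7 and 41.8 (log2 fold change 0.42 ± 0.17 (SE), adjusted p = 0.348). Sqle, squalene epoxidase, differed between the epiblast lines themselves, with 75.5 at E5.5 and 37.7 at E6.5, and without the E5.5 library it was called lower. Hmgcs1 was at 107 and 174, on either side of set 1. The fatty acid sum was 1328 and 1512 FPKM, the highest of the 19 libraries, and 618 and 546 without Scd2, of which the second lay below the first EpiLC library (569) and P20 (561).

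Chromatin had been profiled in fPSCs at P10. Within 1000 bp of the start site (mm9, GENCODE vM1), 31 members were matched, Hmgcs1 being not analysed here. Their promoters carried the active mark H3K4me3 at a median of 6.28 RPKM (reads per kilobase, scaled to library size), against 2.61 for 22072 protein-coding genes, and all 31 were above that median. H3K27me3, the Polycomb mark, had a median of 0.128 RPKM against 0.289, and 5 of 31 were above the median of all genes. The mean methylated fraction had a median of 0.167 against 0.357, and 19 of 31 were at 0.2 or below (32.6% of all promoters). Sqle (chr15:59146632-59162747, plus strand) had the most H3K4me3, at 11.9 RPKM with a methylated fraction of 0.120. Mvd (chr8:124957496-124967322, minus strand) had 9.64 RPKM. Scap had the least, at 2.61 RPKM, just above the median of all promoters. The 4 least methylated promoters were those of fatty acid genes: Scd2 had a fraction of 0, Fads2 0.00733, Fasn 0.00789 and Acly 0.0206. The highest fractions belonged to sterol genes, Dhcr7 at 0.376 and Tm7sf2 at 0.373. Acaca and Acss2 had the most H3K27me3, at 0.644 and 0.547 RPKM. No other state was analysed in this way, and the values are 1 track per mark with no replicate spread and unknown coverage.

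**Figure D5:**
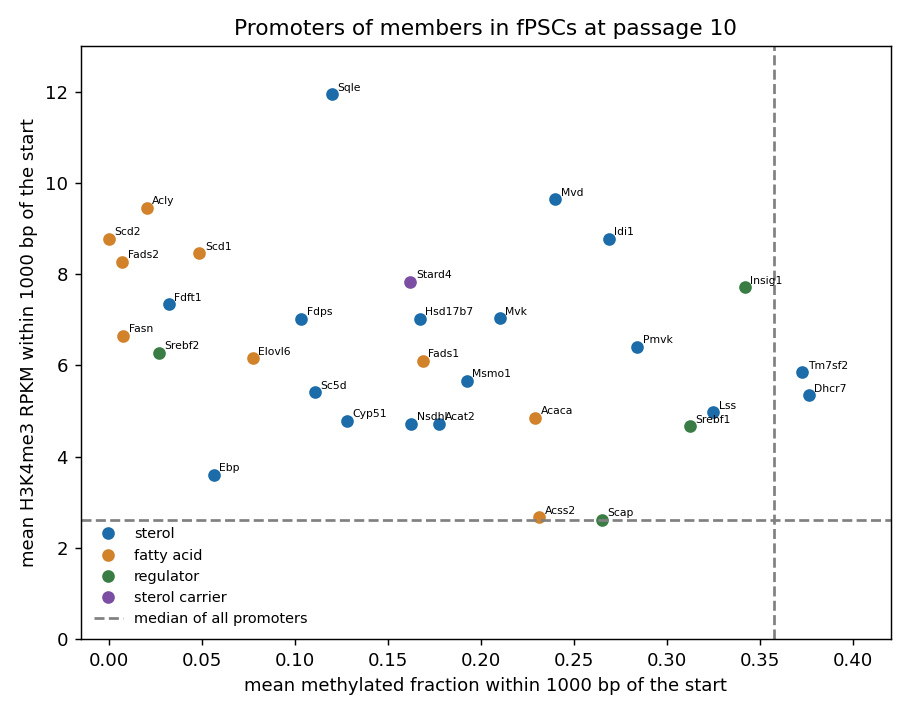
Mean methylated fraction (horizontal) and mean H3K4me3 (vertical, RPKM) within 1000 bp of the start site of 31 members in fPSCs at P10, coloured by branch; dashed lines are the medians of all protein-coding promoters. Every member lies above the H3K4me3 median of 2.61, and all but Dhcr7 and Tm7sf2 lie left of the methylation median of 0.357.

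Single fPSCs were examined in 4 clones. The tables held 182 cells where the labels state 192, and 181 had at least 500 genes. Counts per clone were between 1501395 and 4712214 over 44 to 46 cells. Cells were picked singly into tubes, no doublet caller was run, and 1 cell name was listed for 2 columns with different counts, both kept. The 18 sterol genes summed to 3002 ± 262 CPM (counts scaled to a common library total; SD, n = 4 clones) and the 9 fatty acid genes to 3067 ± 208. The lowest and highest clones were at 2769 and 3363 CPM for the sterol genes and at 2836 and 3314 for the fatty acid genes. Scd2 was at 1309 ± 134 CPM and had a count in 178 of 181 cells (98.3%). Hmgcs1 was at 858 ± 125 and in 94.5% of cells, Msmo1 at 517 ± 63.9 and in 91.7%, Fasn at 462 ± 73.4 and in 90.6%, and Acly at 498 ± 35.9 and in 90.1%. Acss2 had a count in 11 cells (6.08%). Naïve marker genes, given as a background, had counts in a median of 2.21% of cells and at most 24.3%, and fibroblast markers in a median of 1.10% and at most 29.3%. The share of Acss2 lies within this range. So do those of Mvk (28.7%), Ebp (25.4%), Idi1 (24.3%), Tm7sf2 (24.3%), Scap (22.1%) and Srebf1 (21.0%). Fads2 had a count in 12 cells (6.63%, within the same range) and 4.58 ± 3.41 CPM, while its level was 111 to 137 FPKM in the 7 long-term bulk libraries. Fdps (22.7 ± 10.3 CPM) and Idi1 (19.9 ± 2.97) were also low for genes with 161 to 298 and 28.6 to 102 FPKM in those bulk libraries. Over the 32 members, mean CPM and FPKM in CMT P11 had a Pearson correlation of 0.48 on a log2 scale. CPM is not scaled by gene length, and why these genes differ between the assays was not tested.

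Other genes of lipid metabolism were counted in lists chosen for their function. Between fPSCs and mESCs, 2 of 11 other genes of sterol and isoprenoid synthesis that could be tested were higher and 2 lower. Of 17 genes of sterol uptake, efflux and storage, 6 were higher and 6 lower. Of 10 genes of SREBP regulation, 2 were higher and 2 lower. Of 23 other genes of fatty acid synthesis and activation, 7 were higher and 7 lower. Of 18 fatty acid oxidation genes, 2 were higher and 8 lower, with a median log2 fold change of -0.60. Cpt1a, which brings fatty acids to mitochondrial oxidation, was at 29.6 ± 6.99 FPKM in mESCs and 1.34 ± 0.368 in fPSCs (log2 fold change -3.71 ± 0.21, adjusted p = 1.24e-08). The background of this comparison, 17.3% higher and 23.0% lower, applies to each of these counts. Against EpiSCs, 5 of 18 oxidation genes were lower in fPSCs and 1 higher (19.0% and 13.3% of all genes), and against EpiLCs none was lower and 1 higher.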

How the data were processed

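Bulk RNA-seq (19 libraries), ChIP-seq and whole-genome bisulfite sequencing of fPSCs at P10 and single-cell RNA-seq of 4 fPSC clones were analysed. The submitters' processing notes name TopHat2 2.1.1, Bowtie2 2.2.2, Cufflinks 2.1.1, STAR, Trim Galore, BS-Seeker2 and cutadapt 1.11. Bulk values were deposited as FPKM per gene, with no read depth. The single-cell tables held counts per gene and cell, as deposited by the authors. The ChIP-seq tracks were deposited as RPKM in bins of 100 bp, and methylation was deposited by the authors as a fraction per 100 bp on mm9.

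Groups were taken from the sample labels, which do not say that replicates were separate cultures, so that p-values measure the spread between these libraries, which may be technical. From 23608 entries, 4 whose names occur more than once were left out. Genes with at least 1 FPKM in at least 2 libraries of a fit were tested by limma 3.58.1 (R 4.3.3) with a mean-variance trend on log2(FPKM + 1), a pseudocount that understates changes of low genes. Calls needed a Benjamini-Hochberg adjusted p below 0.05 over all genes tested and a fold of 1.5. mESCs, EpiLCs, EpiSCs and long-term fPSCs shared 1 fit, so that comparisons with fPSCs share libraries. Library sets and epiblast-derived fPSCs had fits of their own. Single libraries were given as ratios with no test, except that CMT P11 was set alone against set 1 in a fit added after seeing the data, which takes its spread from set 1. CPM was computed from the summed counts of cells with at least 500 genes. Other steps used Python 3.11.15 with pandas 2.3.3 and numpy 2.4.6, and the tests were run on simulated data first. The members and lists were chosen with earlier results of these data known. Values in each library were given for up to 4 members per branch and comparison with the largest change among those called, and others by range or count. Alternatives were a pseudocount of 0.1, no filter, upper-quartile scaling, only the groups compared, each library set alone, a replicate block, leaving out each library, other promoter windows and other minimums of genes per cell. Results of some single genes are not reported here.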

Additional observations from a re-analysis of the deposited data

Results flagged for a closer look

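A library stood apart from its group for 1 of 32 members over the 7 long-term fPSC libraries and for 3 of 32 over the 4 libraries of set 2, with a gap to the nearest library that was large against the range of the group. Chance gives such a gap in about 5% of groups. Acly was at 100.065 FPKM in P30 and at 119.8 to 137 in the other 6 libraries. Within set 2, Lss was at 17.407 FPKM in BVSC against 31.3 to 34.9 in the other lines. Stard4 was at 23.0089 FPKM in BVSC against 28.4 to 29.3. Ebp was at 23.7681 FPKM in ROSAmTmG against 17.9 to 18.4.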

How the results depend on the processing

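No member call changed direction. Of 439 member calls recomputed under alternatives other than leaving out a library, 422 stayed past the threshold and 17 did not; of 550 with a library left out, 478 stayed and 72 did not. Leaving out libraries gave 13 to 18 members called for fPSCs against mESCs, 9 to 20 against EpiSCs, 1 to 4 against EpiLCs, 7 to 9 for EpiLCs against mESCs, 8 to 10 for EpiSCs against mESCs, 8 to 13 for EpiSCs against EpiLCs, 8 to 10 between library sets and 0 to 1 for epiblast-derived fPSCs. Where this left 1 library in a group, that library was assumed to vary like the other groups. In the comparisons of states, the share of all genes called was smaller in each of these fits too. With fPSCs of set 2 only, 7 members were called against EpiLCs, in place of 4 (21.2% of all genes, in place of 13.8%). Upper-quartile scaling gave 16 for EpiLCs against mESCs, in place of 10 (31.0% of all genes, in place of 29.6%). A pseudocount of 0.1 put 2 members of 46C past a fold of 1.5, in place of 1. The median promoter H3K4me3 was 2.41 RPKM within 5000 bp, against 6.28 within 1000 bp, and the median methylated fraction was 0.0210 within 500 bp and 0.689 within 5000 bp, against 0.167. For all promoters the median H3K4me3 was 1.13 RPKM within 5000 bp. Their median methylated fraction was 0.176 within 500 bp and 0.733 within 5000 bp, so that members lay close to all promoters in the widest window. The cause of these shifts was not tested. The shared replicate numbers of mESCs, EpiLCs and EpiSCs did not pair the libraries: deviations of same-numbered libraries had correlations of 0.20, -0.20 and -0.13. With the replicate block, 14 members were called for EpiLCs against mESCs (10 without), 13 for EpiSCs against mESCs (11) and 16 for EpiSCs against EpiLCs (13). Over all genes these fits called 33.7%, 54.9% and 42.6%, against 29.6%, 47.8% and 35.9% without the block. Read depth is unknown for the bulk values, and groups of 2 libraries limit their precision.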
